A study of Mus musculus with 9 samples.

Results

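Forkhead genes encode transcription factors that share the winged-helix DNA-binding domain. The 36 members followed here, of 34653 annotated autosomal genes, were a fixed list of Fox gene symbols, and each was found in the annotation (GENCODE vM1 on NCBIM37, the assembly behind mm9). All measured cytosines inside a gene and within 5000 bp to each side were taken as its window, which gave 3331 of the 838481 cytosines of the table. Many windows also overlap other annotated genes, such as Sympk in that of Foxa3 and Acacb in that of Foxn4. A window level is therefore not always that of the Fox gene alone. Windows with at least 5 cytosines were tested, 35 of the 36 among 20212 genes. Foxi1 had 0 cytosines in its window and is not described further.

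DNA methylation was measured by reduced representation bisulfite sequencing (RRBS), in which DNA is cut with restriction enzymes, short pieces are kept, and bisulfite turns unmethylated cytosine into a base that sequencing reads as thymine. The cells were preadipocytes of 8 BL6 mice aged 3 weeks, with no engineered allele named, brown ones from interscapular and white ones from inguinal fat. Both were enriched from stromal vascular cells and may hold other stromal cells. After confluence they were differentiated with insulin, dexamethasone, 3-isobutyl-1-methylxanthine and rosiglitazone. The 9 libraries were BAT at days 0, 4 and 6, BAT + NE (day 6 with 4 h of norepinephrine), WAT at days 0, 4 and 6, and BWAT at days 4 and 6 (a separate set of white cells, given norepinephrine while they differentiated), 1 library each. With 1 library per condition, brown (4 libraries) was compared with white (5), and the 7 libraries after day 0 (later) with both day 0 libraries, so every p-value rests on the scatter among these 9 libraries, whose days need not be separate cultures. All brown cells came from interscapular and all white cells from inguinal fat, so lineage and depot cannot be told apart in any lineage difference below. Depth beyond the minimum that the study applied is unknown, and no RNA was analysed here.

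The family divides into factors that pattern the embryo and factors used in most adult cells. Developmental members such as Foxa, Foxc, Foxd, Foxf and Foxl genes act in particular tissues, and their CpG islands are known as a class that is often kept silent by Polycomb rather than by DNA methylation. Foxo factors are switched off by insulin through Akt, and in fat cells Foxo1 is known to restrain adipogenesis. Foxk factors act in nutrient sensing and glycolysis, and Foxp factors act in heart, lymphocyte, brain and lung development and, in mouse fat, Foxp1 is known to hold back the thermogenic programme. The members were therefore read as 24 developmental members, 7 Foxo, Foxk and Foxp members, and 5 other broadly expressed members (Foxj2, Foxj3, Foxm1, Foxn2 and Foxn3).

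Apart from whole windows, methylation was averaged over fragments, stretches holding 4 or more measured cytosines none of which lies over 300 bp from the next. There were 187 fragments in forkhead windows out of 67233, from 0 to 28 per member. Sequences of 6 of the fragments described further on are shown first because the lineage and stage results turn on them, as the plus strand of NCBIM37 with the CpG dinucleotides that were measured in capitals. The first pair lost methylation after day 0, the others differed between brown and white cells, and each lay in an intron except that of Foxs1, which lay in its coding exon.
Foxn3 intron, chr12:100612530-100612654: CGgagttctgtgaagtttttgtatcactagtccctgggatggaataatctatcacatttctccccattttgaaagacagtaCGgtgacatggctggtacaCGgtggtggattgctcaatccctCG
Foxp1 intron, chr6:98914987-98915129: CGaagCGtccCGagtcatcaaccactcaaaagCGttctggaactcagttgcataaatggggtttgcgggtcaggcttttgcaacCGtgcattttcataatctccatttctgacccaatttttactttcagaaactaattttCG
Foxn3 intron, chr12:100508272-100508370: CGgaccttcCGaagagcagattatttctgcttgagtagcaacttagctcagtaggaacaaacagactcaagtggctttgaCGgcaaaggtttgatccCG
Foxn4 intron, chr5:114719378-114719478: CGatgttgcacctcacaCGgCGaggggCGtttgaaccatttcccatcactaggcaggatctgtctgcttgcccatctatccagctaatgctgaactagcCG
Foxo3 intron, chr10:41923726-41923878: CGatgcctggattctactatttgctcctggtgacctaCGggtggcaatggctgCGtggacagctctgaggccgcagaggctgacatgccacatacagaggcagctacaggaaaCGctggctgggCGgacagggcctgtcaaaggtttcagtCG
Foxs1 coding exon, chr2:152758451-152758689: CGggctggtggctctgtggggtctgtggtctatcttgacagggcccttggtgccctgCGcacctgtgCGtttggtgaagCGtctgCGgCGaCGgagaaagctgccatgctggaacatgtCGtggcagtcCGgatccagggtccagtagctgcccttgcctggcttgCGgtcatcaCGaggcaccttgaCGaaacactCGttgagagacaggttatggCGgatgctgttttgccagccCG

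The measured CpGs were sparse in the introns, with 4 in each Foxn3 stretch, 5 in Foxn4, 6 in Foxp1 and 6 in Foxo3, against 15 in Foxs1. Known binding motifs were searched on both strands in windows of 300 bp centred on these 6 fragments, a search added after the values were seen. The motifs were the forkhead core TGTTTAC, the C/EBP core TTGCNNAA, where N is any base, and the consensus patterns named DR1 (nuclear receptors), GRE (glucocorticoid receptor) and NF1, and none of these contains another. The C/EBP letters occurred at 2 places in the Foxp1 window and at 1 in the Foxn3 window that changed with differentiation, and in none of the other 4, where 9.16% of the windows of all fragments held them. None of the 6 windows held the forkhead core, which 3.17% of all fragments did, nor DR1, GRE or NF1, which were in 0.0669%, 0.00446% and 0.0253% of all fragments. A match here describes letters and is not a measured binding site.

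The level of the forkhead windows differed between the groups of genes. The median developmental window was at 6.14%, with 15 of 23 below 10%, while the median of Foxo, Foxk and Foxp windows was 31.3% and that of the other members 20.6%. The median over all 20212 windows was 33.6%. By single cytosines, 87.9% of those of developmental members were lowly methylated (mean below 30%), against 58.7% for Foxo, Foxk and Foxp members, 58.6% for the other members and 51.3% in the whole table.

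The lowest windows were those of Foxl2 (ovary), Foxe3 (lens) and Foxd2, with means over the libraries of 2.26%, 2.29% and 2.46%. The embryonic mesenchyme factors Foxf1a and Foxf2 had 3.06% and 3.75%, Foxd3 of the neural crest 5.41%, and the liver pioneer factors Foxa1 and Foxa2 5.93% and 6.31%. At the other end stood Foxs1, a factor of vascular and neural crest derivatives, with 89.9%, Foxn1 of thymic epithelium with 65.7% and Foxj1, which drives motile cilia, with 57.7%. Methylation thus ran over nearly the whole scale among the developmental members. Among the Foxo, Foxk and Foxp members it ran from 8.17% in Foxo1 to 65.2% in Foxp1, with Foxp2 at 16.2%, Foxk2 at 17.6%, Foxo3 at 31.3%, Foxk1 at 37.3% and Foxp4 at 42.3%.

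The remaining developmental windows with low levels were those of Foxq1 (2.59%), Foxb1 (2.93%), Foxb2 (4.22%), Foxl1 (5.32%), Foxd4 (6.14%), Foxd1 (7.31%) and Foxn4 (8.57%). Above them followed Foxe1 (12.8%, with 8 cytosines), Foxc2 (14.7%), Foxh1 (18.5%), Foxc1 (24.7%) and Foxa3 (39.1%). Of the other broadly expressed members, Foxj3 and Foxj2 had 11.2% and 12.4%, Foxn2 20.6%, Foxn3 49.7% and Foxm1, which drives entry into mitosis, 62.5%. Windows of 1 gene moved little beside these steps between genes.

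**Figure D1:**
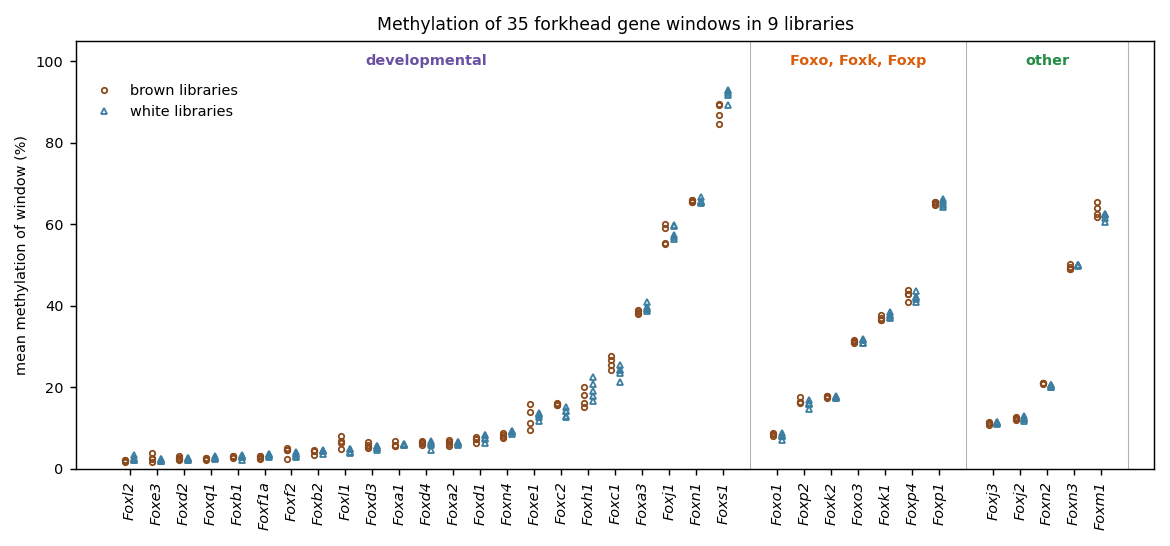
Mean methylation (%) of the 35 forkhead gene windows with measured cytosines, 1 point per library, brown libraries (circles, n = 4) left of white libraries (triangles, n = 5), ordered by level within each group of genes. Most developmental windows sit below 10% in every library, Foxs1 stands near 90%, and the points of 1 gene lie close together.

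The libraries resembled each other far more than the genes did. The range over the 9 libraries had a median of 1.84 points per window and was below 2 points in 19 of 35. The widest ranges were in Foxs1, from 84.6% in BAT day 0 to 93.01% in WAT day 6, and in Foxh1, a partner of Smad proteins in Nodal signalling, from 15.1% to 22.4% in the same pair of libraries.

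The level depended on the distance from the gene start. From 1000 bp upstream to 500 bp downstream of the annotated start of the gene, the median of 18 developmental genes was 1.95% in brown and 1.99% in white libraries, and that of 5 Foxo, Foxk and Foxp genes was 0.693% and 0.764%. More than 20000 bp into the gene, the 7 Foxo, Foxk and Foxp genes were at 71.6% and 71.0%, and the 3 other members with cytosines there at 89.6% in both lineages. The developmental genes are short, and for the 12 with cytosines between 2000 and 5000 bp downstream the median was 26.2% in brown and 29.1% in white libraries. Both groups were low near their starts, and the long bodies of the Foxo, Foxk and Foxp genes were high.

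**Figure D2:**
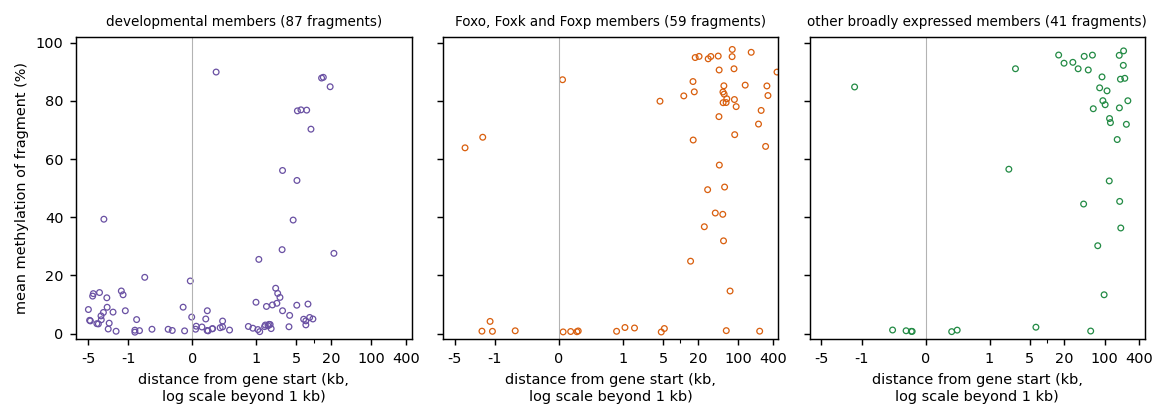
Mean methylation over all 9 libraries (%) of each of the 187 forkhead fragments against its distance from the annotated gene start (kb, negative upstream, log scale beyond 1 kb), in 3 panels by group of genes. Fragments near the start lie near 0% in all 3 groups with few exceptions, and those far inside the long Foxo, Foxk, Foxp and other genes lie mostly above 60%.

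Promoters, from 1000 bp upstream to 500 bp downstream of any annotated transcript start with overlapping windows merged, were measurable for 29 members as 33 promoters. Of these, 24 were below 5% and 27 below 10%, and the median was 1.49% against 1.60% for all 15694 promoters. The ratio of observed to expected CpGs around the gene start had a median of 0.714 in developmental members and 0.784 in Foxo, Foxk and Foxp members, against 0.489 in the other 21383 genes. Only 4 promoters were above 80%, those of Foxs1, an alternative start of Foxk2 (87.3%), an alternative start of Foxp2 (89.9%) and an internal start of Foxm1 (91.0%). The main island promoters of Foxk2, Foxp2 and Foxm1 were at 0.681%, 0.876% and 7.47%. In these 3 genes 1 start was thus lowly and another highly methylated in all 9 libraries. A further Foxp2 promoter, with 3 cytosines, lay between at 47.1%, from 39.7% to 53.9% over the libraries.

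Few forkhead windows differed between brown and white cells. Of 35 windows 2 were called (limma with Benjamini-Hochberg adjustment over all 20212 windows, adjusted p below 0.05), both lower in brown, which is 5.71% of the members. Among all windows 7.85% were called, 2.54% higher and 5.31% lower. Another 4 members, which makes 6 or 17.1%, had an unadjusted p below 0.05 (21.6% of all windows), and the median brown minus white difference of the members was -0.02 points against -0.08 points over all windows. Both called windows were of developmental members, and 0 of the 7 Foxo, Foxk and Foxp windows had an unadjusted p below 0.05. Both calls were lost without the stage term (limma, adjusted p = 0.0607 for Foxs1 and 0.0902 for Foxn4) and with the 6 BAT and WAT libraries alone (0.118 and 0.366).

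Foxs1 was the most methylated member and the clearest of these. Its window consists of 1 fragment with 28 cytosines, so window, promoter and fragment are the same measurement. BAT had 84.6%, 89.3% and 86.9% at days 0, 4 and 6 and BAT + NE 89.6%, while WAT had 89.3%, 92.8% and 93.01% and BWAT 91.7% and 92.1%. At each day the brown library was below the white one, and the groups overlapped only because WAT day 0 lay just below BAT day 4 and BAT + NE. The strands were unlike, with a lineage difference of -6.06 points on the forward and -2.32 points on the reverse strand. BAT day 0 had 76.5% on the forward and 92.6% on the reverse strand, against 88.8% and 89.7% in WAT day 0. The low value of BAT day 0 was thus confined to the forward strand. Over all 28 cytosines the means were 87.6 ± 2.35% (SD, n = 4) and 91.8 ± 1.49% (SD, n = 5), a difference of -4.19 points (limma, adjusted p = 0.00729 among windows and 0.0186 among fragments), and 23 of 28 cytosines were lower in brown. As a promoter it missed the threshold (adjusted p = 0.0587), and the fragment call was lost without BAT day 0 or WAT day 0 (0.0587 in each case) and without BAT day 6 (0.0554) or the stage term (0.0575).

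Foxn4, which acts in retinal and spinal interneuron progenitors, had a window mean of 8.05 ± 0.508% in brown (SD, n = 4) and 8.98 ± 0.292% in white libraries (SD, n = 5), a difference of -0.93 points (limma, adjusted p = 0.043). The window holds an intron fragment of 8 cytosines, 4388 bp from the start, in which BAT had 31.6%, 32.0% and 34.2% and BAT + NE 30.2%, against 44.4%, 37.1% and 44.4% in WAT and 47.7% and 49.8% in BWAT. All 4 brown libraries were below all 5 white ones. The fragment differed by -12.6 points (limma, adjusted p = 0.0174), and by -17.2 points without the cytosines in restriction sites. The window call was kept only without BAT day 4 and was lost without each of the other 8 libraries (adjusted p from 0.0739 to 0.131), that of the fragment without BAT day 0 or WAT day 0 (0.0592 in each case), without BAT + NE (0.0556) and with the strands averaged (0.0633).

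Forkhead genes that lie in clusters were compared as neighbours, and none of their 8 windows was called (limma, with 4 at an unadjusted p below 0.05). On chromosome 8, Foxf1a, Foxc2 and Foxl1 lie within 44.6 kb. In the Foxc2 window, a regulator of vessel and mesenchyme development that promotes brown-like features when overexpressed in mouse fat, BAT had 15.7%, 16.01% and 15.9% and BAT + NE 15.6%, against 12.7%, 15.2% and 14.1% in WAT and 14.2% and 13.0% in BWAT. In the Foxl1 window, a factor of gut mesenchyme, BAT had 6.37%, 6.90% and 8.04% and BAT + NE 4.89%, against 4.16%, 4.78% and 4.11% in WAT and 3.88% and 4.72% in BWAT. Brown libraries lay above all white ones in both windows, and also in that of Foxn2, which makes 3 members with brown above white and none with brown below (8.57% of members, against 3.62% of all windows with brown above and 11.7% not overlapping in either direction). None of the 3 passed the test (limma, adjusted p = 0.0529 for Foxc2, 0.0548 for Foxl1 and 0.288 for Foxn2).

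Foxf1a, the remaining gene of that cluster, had 2.81 ± 0.352% in brown and 3.26 ± 0.367% in white libraries (SD, n = 4 and 5), a difference of -0.45 points that did not pass (limma, adjusted p = 0.134). In the chromosome 13 cluster of Foxq1, Foxf2 and Foxc1, which spans 252 kb, the windows differed by -0.24, 0.78 and 2.19 points (limma, adjusted p = 0.408, 0.315 and 0.0635). In the chromosome 4 cluster, Foxd2 and Foxe3 differed by 0.20 and 0.54 points (limma, adjusted p = 0.684 and 0.490). The window of Foxc1, a mesenchymal factor, thus missed the threshold, and a fragment of 17 cytosines upstream of it, at -4152 bp from its start, was called. That fragment had 13.3%, 15.5% and 18.6% in BAT and 17.4% in BAT + NE, against 7.39%, 9.53% and 12.6% in WAT and 8.96% and 12.8% in BWAT. All brown libraries were above all white ones, and BAT and WAT both rose from day to day. It was higher in brown by 5.94 points (limma, adjusted p = 0.0141), and the call was lost without BAT day 0 or WAT day 0 (adjusted p = 0.0569 in each case).

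Between lineages 11 of 187 forkhead fragments were called, 5 higher and 6 lower in brown. That is 5.88%, beside 9.43% of all fragments (3.52% higher and 5.91% lower). An unadjusted p below 0.05 was seen in 36 (19.3%), beside 21.7% of all fragments. With the 6 BAT and WAT libraries alone and day as a factor, limma called 0 of the 187 (23 at an unadjusted p below 0.05) and 2.28% of all fragments. Developmental members had 4 of 87, Foxo, Foxk and Foxp members 4 of 59, and the other members 3 of 41. The groups did not overlap in 13 fragments (9 with brown below and 4 with brown above), or 6.95% against 12.3% of all fragments.

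The widest difference was in Foxk1, a factor of muscle progenitors and of the glycolytic response to fasting. Its fragment of 6 cytosines, chr5:142933389-142933526, lies in the 3′ UTR of the last exon, 56006 bp from the gene start. BAT had 23.5%, 20.7% and 20.8% and BAT + NE 22.8%, against 34.1%, 39.2% and 47.6% in WAT and 40.8% and 37.4% in BWAT. The brown libraries stayed together while the WAT libraries rose with the day, and the groups were far apart. The difference was -17.9 points (limma, adjusted p = 0.0017) and -23.3 points without the restriction-site cytosines, with all 6 cytosines lower in brown. The forward and the reverse strand gave -16.8 and -18.9 points. The call was kept without each of the 9 libraries in turn. The island in the promoter of Foxk1 was at 0.593% over all libraries.

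In Foxn3, a factor tied to cell cycle checkpoints and liver glucose production, an intron fragment of 8 cytosines 179963 bp into the gene had 69.8%, 75.4% and 69.9% in BAT and 72.1% in BAT + NE, against 80.9%, 84.6% and 83.1% in WAT and 80.2% and 82.4% in BWAT. All brown libraries were lower, with a difference of -10.4 points (limma, adjusted p = 0.00463), and the call was kept without each library in turn. The difference was concentrated in the first CpG of the sequence shown above. There the forward cytosine had means of 64.0% in brown and 90.5% in white libraries and the reverse one 63.4% and 90.5%, while the other 6 cytosines differed by -9.22 to 2.89 points.

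In Foxo3, the stress and starvation factor that insulin signalling inhibits, a lowly methylated intron fragment of 10 cytosines 72759 bp from the start had 15.0%, 20.1% and 17.5% in BAT and 19.9% in BAT + NE, against 10.5%, 12.6% and 11.8% in WAT and 10.3% and 14.1% in BWAT. Brown libraries were above all white ones, with each of the 10 cytosines higher in brown. The difference was 6.25 points (limma, adjusted p = 0.0109), and the call was kept without each library in turn. The Foxo3 window of 290 cytosines did not follow it, with 31.3 ± 0.266% in brown and 31.3 ± 0.421% in white libraries (SD, n = 4 and 5). Foxo1 had 2 fragments and neither was called.

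Foxp1 had 2 of its 11 fragments called, in opposite directions. In the first, with 20 cytosines at chr6:98898589-98899059, BAT had 79.1%, 83.6% and 82.9% and BAT + NE 84.1%, against 85.4%, 86.9% and 88.5% in WAT and 87.3% and 88.2% in BWAT, a difference of -4.84 points (limma, adjusted p = 0.0222). The call was lost without BAT day 0, 4 or 6, WAT day 0 or 6, or BWAT day 6 (adjusted p from 0.051 to 0.0821). The other is the fragment that also changed with the stage. It was higher in brown by 11.98 points (limma, adjusted p = 0.0300), in all of its 12 cytosines. This lineage call was lost without the stage term (limma, adjusted p = 0.462) and without each library other than BAT day 4, WAT day 4 and BWAT day 4. The plain difference of means was 6.25 points without BAT day 0 and 18.0 points without WAT day 0. It is not adjusted for the stage, so in a fragment that fell after day 0 it shifts with the day 0 library left out. In the fit the remaining day 0 library is taken up by the stage term, so both omissions leave the same lineage effect.

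The remaining 3 called fragments stood close to the threshold. Foxa3, a liver factor, had an intron fragment of 6 cytosines with 22.5%, 18.8% and 21.4% in BAT and 24.8% in BAT + NE, against 32.7%, 28.4% and 27.1% in WAT and 27.5% and 26.5% in BWAT (limma, -6.58 points, adjusted p = 0.0463). Downstream of Foxn2, a fragment of 4 cytosines had 89.9%, 96.5% and 91.9% in BAT and 96.9% in BAT + NE, against 82.1%, 87.5% and 89.4% in WAT and 93.2% and 88.2% in BWAT (limma, 5.69 points, adjusted p = 0.0413). The internal start of Foxm1 had 91.9%, 92.4% and 92.9% in BAT and 92.8% in BAT + NE, against 89.4%, 89.4% and 89.1% in WAT and 90.1% and 91.2% in BWAT (limma, 2.67 points, adjusted p = 0.0455). Brown and white libraries were apart in Foxa3 and Foxm1 and overlapped in Foxn2. The Foxa3 call was kept only without BAT + NE, the Foxn2 call only without BAT day 6 or BWAT day 4, and the Foxm1 call only without BWAT day 6, with adjusted p up to 0.154, 0.116 and 0.106 without the others. That of Foxm1 was also lost without restriction-site cytosines (0.293), that of Foxn2 without the stage term (0.130), and that of Foxa3 without the stage term (0.0579) and with gaps of at most 100 bp (0.0544).

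**Figure D3:**
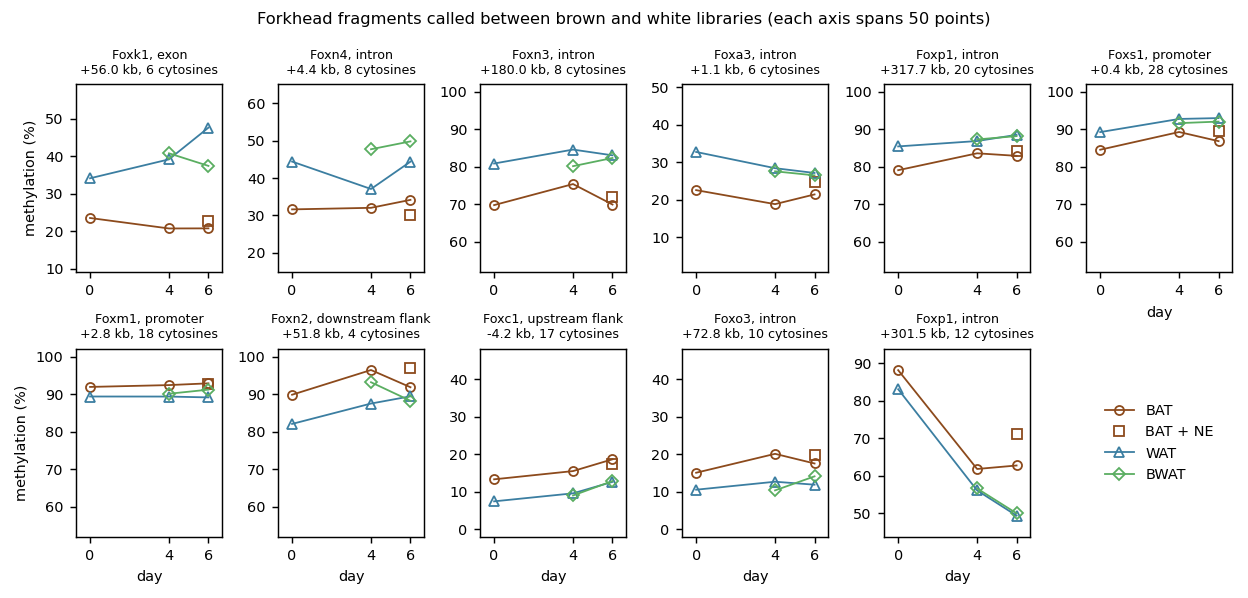
Methylation (%) by day of the 11 forkhead fragments called between brown and white libraries, 1 point per library (BAT, BAT + NE, WAT, BWAT), each vertical axis spanning 50 points, with the gene, place, distance from the gene start and number of cytosines above each panel. Foxk1 shows brown libraries between 20.7% and 23.5% and white ones between 34.1% and 47.6%, and the last panel shows the Foxp1 fragment that also fell after day 0.

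Among the 12 widest fragments, 6 were not called. Fragments of Foxp4 at chr17:48044874-48045001 and chr17:48021247-48021371 differed by 7.96 and -7.14 points (limma, adjusted p = 0.0841 and 0.112), again in opposite directions within a gene. Another Foxp1 fragment at chr6:98964185-98964308 differed by -6.93 points (0.172), a pair of Foxn3 fragments at chr12:100506245-100506400 and chr12:100566908-100567034 by -6.53 and 6.10 points (0.190 and 0.092), and one downstream of Foxc2 at chr8:123646024-123646104 by 6.24 points (0.0868). Only in the last of these were the groups apart, with 77.9% to 83.0% in brown and 70.1% to 76.8% in white libraries.

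No promoter of a forkhead gene was called between lineages by limma (0 of 33), beside 1.37% of all promoters, and 4 of them (12.1%) had an unadjusted p below 0.05, beside 10.5% of all. The lowest p belonged to Foxs1 and to the internal start of Foxm1, described above. The Foxl1 promoter, with 32 cytosines, had 9.43%, 10.7% and 12.3% in BAT and 7.18% in BAT + NE, against 5.84%, 7.22% and 5.92% in WAT and 5.24% and 7.01% in BWAT, with an overlap of 1 brown library (limma, 3.66 points, adjusted p = 0.186). The fourth, an internal promoter of Foxp1, had 1.10 ± 0.458% and 0.644 ± 0.223% (SD, n = 4 and 5; limma, adjusted p = 0.467). On the percent scale, or with a pseudocount of 5, 2 promoters were called, beside 1.99% and 2.26% of all promoters.

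Single cytosines were counted for pairs of libraries of the same day, with no test because the files hold no read numbers. BAT and WAT differed by at least 10 points at 345 forkhead cytosines on day 0, 401 on day 4 and 449 on day 6, that is at 10.4%, 12.04% and 13.5% of 3331, beside 16.3%, 17.3% and 18.9% of all cytosines. Of these 184, 187 and 230 were higher in BAT and 161, 214 and 219 lower. Among all cytosines the shares were 6.92%, 7.88% and 8.6% higher, and 9.35%, 9.43% and 10.3% lower.

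With differentiation, most forkhead windows rose by a small amount and none was called. The change from day 0 to later libraries was above 0 in 30 of 35 windows, with a median of 0.47 points, beside 65.9% and 0.26 points among all windows. By limma 0 of 35 windows passed (0.292% of all windows did), and 10 had an unadjusted p below 0.05, all higher. That is 28.6%, beside 11.6% of all windows in either direction and 9.05% higher. Of these, 9 were developmental members. In a split by level added after the values were seen, among windows below 10% 6 of 16 forkhead windows (37.5%) were higher at that unadjusted level, against 7.95% of 4717. Among windows at 10% or above, 4 of 19 forkhead windows (21.1%) were, against 9.38% of 15495. These shares were not tested, and all windows rest on the same day 0 libraries. The mean of all cytosines also moved with the stage, from 40.2% in BAT day 0 to 40.7% in BAT day 6 and from 40.8% to 41.2% in WAT, while the mean of the forkhead cytosines went from 22.4% to 23.0% and from 22.3% to 23.1%, and the part of that general shift in the member values was not tested.

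The widest rises were in the windows of Foxs1 and Foxh1, by 3.56 and 3.17 points, followed by Foxc1 with 2.72 points (limma, unadjusted p = 0.00167, 0.0409 and 0.00571, adjusted p = 0.137, 0.404 and 0.211). The Foxh1 window also overlaps the genes Kifc2 and Ppp1r16a, and 0 of its 2 fragments had an unadjusted p below 0.05 for the stage (limma). In Foxs1 the mean of all later minus both day 0 libraries was 6.71 points on the forward and 0.95 points on the reverse strand. In Foxc1 the window had 24.3% in BAT day 0 and 25.4%, 26.6% and 27.6% in the later brown libraries, and 21.2% in WAT day 0 and 23.5% to 25.6% in the later white ones. Day 0 was the lowest library within both lineages in Foxc1, as in 10 of 35 windows in all, or 28.6% against 14.3% of all windows. Foxf2 rose more in brown (2.33 points) than in white libraries (0.44 points), which was not tested for windows.

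**Figure D4:**
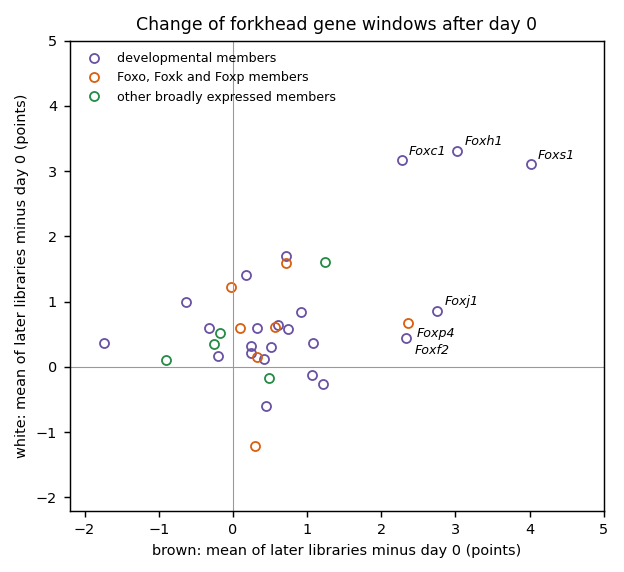
Change of each of the 35 forkhead windows after day 0, in percentage points, as the mean of the later libraries minus the day 0 library in brown (horizontal axis, 3 later libraries) and in white cells (vertical axis, 4 later libraries), 1 point per gene coloured by group. Foxs1, Foxh1 and Foxc1 rose by more than 2 points in both lineages, and most other genes lie within 1.5 points of 0 on both axes.

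Against this general rise stood 2 intron fragments that lost methylation, the only forkhead fragments called with the stage. That is 2 of 187, or 1.07%, beside 0.173% of all fragments, 0.118% being lower. In Foxn3, a fragment of 6 cytosines 75692 bp into the gene and 19415 bp from the nearest annotated start had 61.1% in BAT day 0 and 14.4%, 23.8% and 16.7% in BAT day 4, BAT day 6 and BAT + NE. WAT fell from 57.7% to 25.4% and 25.2% at days 4 and 6, and BWAT had 20.4% and 27.3%. Both day 0 libraries were thus above 57% and all 7 later ones below 28%, in brown and white cells alike.

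The mean fell by 37.9 points (limma, adjusted p = 0.0072). All 6 cytosines were lower later, and the forward and the reverse strand gave -37.4 and -37.5 points. The largest single change, -52.8 points, was at the reverse cytosine of the second CpG of the sequence shown. Without restriction-site cytosines the change was -42.5 points. The call was lost without BAT day 0 (adjusted p = 0.209, with -33.1 points), when a single library represents day 0, and was kept without any other library.

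In Foxp1, a fragment of 12 cytosines 301468 bp into the gene and 38616 bp from the nearest annotated start had 88.2% in BAT day 0 and 61.8%, 62.7% and 71.3% in the later brown libraries. WAT went from 83.1% to 56.1% and 49.4%, and BWAT had 56.6% and 49.96%. Again both day 0 libraries were above every later one. The change was -26.5 points (limma, adjusted p = 0.00526), seen in 11 of 12 cytosines, with -30.6 points on the forward and -24.1 on the reverse strand. The call was lost without BAT day 0 (adjusted p = 0.118) and without WAT day 0 (0.0977), and in both cases 1 library was left for day 0.

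The Foxp1 fragment ends in a CpG whose strands were unlike. At this last CpG, inside a restriction site, the forward cytosine read 0% to 10% in all libraries and the reverse one 87.5% to 100%. At the first CpG the brown means were 71.6% and 76.2% on the strands. Ends of the cut DNA are filled in with unmethylated cytosine during library preparation, so cytosines in such sites can read low, and the part of this step here was not tested. Without them the change of the Foxp1 fragment was -31.4 points (limma, adjusted p = 0.00107) and its lineage difference 13.3 points (adjusted p = 0.0291). The last CpG of the Foxn3 fragment at chr12:100508272-100508370, also in a restriction site, read 0% to 6.25% on the forward and 82.2% to 100% on the reverse strand. In Foxs1 the forward cytosine at 152758580, in such a site, had 92.6% in BWAT day 6 and 23.9% to 39.7% in all other libraries. It gave the widest lineage difference of that fragment, -14.5 points.

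**Figure D5:**
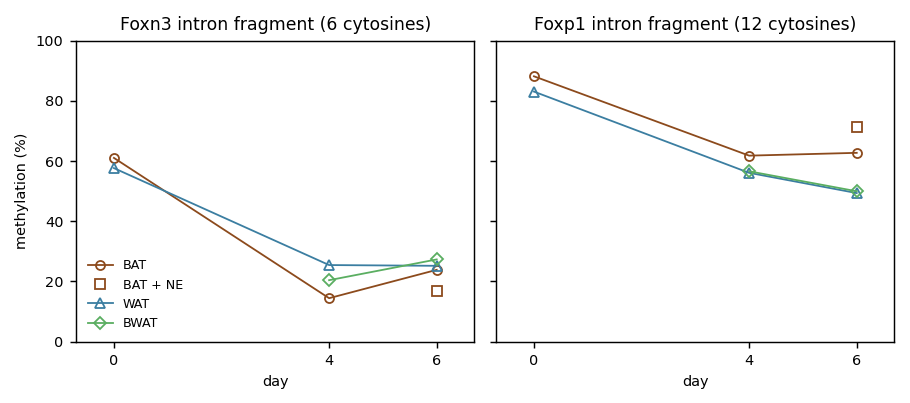
Methylation (%) by day of the Foxn3 (6 cytosines) and Foxp1 (12 cytosines) intron fragments called between day 0 and later libraries, 1 point per library. Both day 0 libraries lie above all 7 later ones, from 57.7% and 61.1% to 27.3% or below in Foxn3, and from 83.1% and 88.2% to 71.3% or below in Foxp1.

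No other forkhead fragment passed, and 26 of 187 (13.9%, beside 8.57% of all) had an unadjusted p below 0.05, 22 of them higher later (11.8%, beside 5.65%). Of all changes 126 were above 0, or 67.4% beside 58.8%. The uncalled Foxp1 fragment named above went the other way from the called one, with 63.5% in BAT day 0 and 70.3% to 80.7% in later brown libraries, and 70.1% in WAT day 0 and 78.5% to 85.1% in later white ones, a rise of 12.3 points (limma, adjusted p = 0.278). For the difference of the stage change between brown and white cells, limma called 0 of 187 forkhead fragments (0.00149% of all fragments), and 8 had an unadjusted p below 0.05, or 4.28% beside 4.6%. Named after their values were seen, the widest of these were an intron fragment of Foxn3, with changes of -8.49 points in brown and 4.16 points in white libraries, and one upstream of Foxf2, with 11.3 and 0.95 points. The Foxf2 fragment went from 6.83% in BAT day 0 to 18.05%, 14.2% and 22.2%, and from 11.03% in WAT day 0 to between 8.87% and 13.7% in later white libraries. For promoters the stage called 0 of 33 (limma, beside 0.051% of all promoters), with 3 at an unadjusted p below 0.05, or 9.09% beside 6.66%.

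At single cytosines, day 6 differed from day 0 by at least 10 points at 431 forkhead cytosines in BAT (12.9%, beside 17.1% of all) and at 367 in WAT (11.02%, beside 15% of all). Of these 271 were higher and 160 lower in BAT, and 249 higher and 118 lower in WAT, where among all cytosines 9.69% were higher and 7.38% lower in BAT, and 8.3% higher and 6.7% lower in WAT. In developmental members 155 were higher and 75 lower in BAT, and 140 and 53 in WAT. In the Foxo, Foxk and Foxp members 82 were higher and 52 lower in BAT, and 74 and 39 in WAT. The other broadly expressed members, which hold the Foxn3 fragment, had 34 higher and 33 lower in BAT, and 35 and 26 in WAT.

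Norepinephrine was given for 4 h to BAT and during differentiation to BWAT, and its values are given side by side; no test of it was run. BAT + NE and BAT of day 6 differed by at least 10 points in 6 of 187 forkhead fragments (3.21%, against 3.59% of all fragments), BWAT and WAT in 7 at day 4 (3.74% against 2.56%) and in 4 at day 6 (2.14% against 2.42%). Only 1 fragment was past 10 points in the same direction on both BWAT days, an intron run of 6 cytosines in Foxn3 at chr12:100645237-100645264, singled out after its values were seen. It had 48.7% and 58.6% in BWAT against 30.7% and 38.7% in WAT, whereas BAT + NE had 27.8% against 40.5% in BAT day 6, the opposite direction. The fragments that fell after day 0 had 16.7% with and 23.8% without norepinephrine in Foxn3 and 71.3% and 62.7% in Foxp1.

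Genes around the Foxo factors were read the same way. Of 30 genes of the insulin, PI3K and FOXO pathway, 1 window was called between lineages, that of the deacetylase Sirt2, which had 46.8 ± 0.921% in brown and 52.6 ± 1.12% in white libraries (SD, n = 4 and 5; limma, -5.77 points, adjusted p = 0.00152). That is 3.33% of the list, beside 7.85% of all windows. Of their 169 fragments 3 were called higher and 8 lower in brown, or 6.51% beside 9.43% of all fragments. Of 19 measured FOXO target windows 1 was called, that of the cell cycle inhibitor Cdkn1b, with 3.19 ± 0.0917% and 2.54 ± 0.146% (SD, n = 4 and 5; limma, 0.65 points, adjusted p = 0.00852), which is 5.26% of the list, and of 56 target fragments 2 were higher and 1 lower, or 5.36%. The lower one, in the proapoptotic gene Bcl2l11, had 48.9% to 53.5% in brown and 69.03% to 75.03% in white libraries (limma, -22.04 points, adjusted p = 0.000144). After day 0 the median window of these lists changed by 0.25 and 0.15 points.

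The labels of the cells were looked at through the same table. Of 11 fragments of white lineage markers 8 were called (72.7%, beside 9.43% of all fragments), all at Hoxc9 and Hoxc10 and all higher in brown. Brown lineage markers were mixed (22.4% called), with 5 of 58 fragments called higher in brown, in Prdm16, Zic1 and Cidea, and 8 lower, in Ebf2, Prdm16 and Zic1. Of their 5 windows 1 was called (20%, beside 7.85% of all windows), that of Ebf2, which was at 35.7 ± 0.455% in brown and 41.9 ± 0.972% in white libraries (SD, n = 4 and 5; limma, adjusted p = 0.0014). Of endothelial markers 0 of 5 windows, 1 of 23 fragments (4.35%) and 1 of 3 promoters (33.3%, beside 1.37% of all promoters) were called. That fragment and promoter, at Pecam1, are the same measurement. Of haematopoietic markers 1 of 3 windows (33.3%) and 2 of 5 fragments (40%), and of pan-adipogenic markers 0 of 4 windows and 1 of 9 fragments (11.1%, in Plin1), were called. In these last 3 lists each called unit was lower in brown. Each level is a mean over the cells of a culture, and the part of other cell types in the forkhead values was not tested.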

How the data were processed

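The members and all gene lists were chosen with earlier results of these data known. Libraries were made from DNA cut with MspI and TaqαI, with ends filled, sizes selected and bisulfite applied. Bowtie and mm9 are named in the submitters' processing notes, and for Bowtie the version was not given in the sources used here. From the reads the authors computed a percent for every autosomal CpG cytosine covered 10 or more times in each of the 9 libraries, with both strands of a CpG kept apart, and this percent is the deposited value. No read counts are given, so the depth and counting error of a value are unknown and the Fisher test of the study could not be run.

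The table held 838481 cytosines on 19 chromosomes. Levels were averaged over gene windows (gene and 5000 bp to each side, at least 5 cytosines), fragments (at least 4 cytosines, gaps of at most 300 bp) and promoters (at least 2 cytosines). Differences were tested with limma 3.58.1 in R 4.3.3 on log2((level + 1)/(100 − level + 1)), with terms for lineage and stage and moderated variances, and Benjamini-Hochberg adjustment over all units of a kind, called below 0.05. Point differences are differences of mean percents, and those between lineages are not adjusted for the stage. The code was tested on simulated data. Named were members with a called unit, with at most 3 fragments each, and the 12 widest fragments. Tables were handled with pandas 2.3.3.

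Alternatives were the 6 BAT and WAT libraries with day as a factor, no stage term, the percent scale, a pseudocount of 5, no cytosines in restriction sites, averaged strands, higher minimums, gene bodies alone, gaps of 100 bp, a limit of 20 points for single cytosines, and leaving out each library.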

Additional observations from a re-analysis of the deposited data

How the results depend on the processing

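Alternatives were run for the lineage differences of 17 named fragments and of the Foxn4 and Foxs1 windows and for the stage changes of the Foxn3 and Foxp1 fragments, and none of these changed direction. Other named windows and fragments were not rerun singly. With the 6 BAT and WAT libraries and day as a factor, 2 residual degrees of freedom are left. There limma called 0 windows and 0 fragments between lineages (5 windows and 23 fragments at an unadjusted p below 0.05). Over all units it called 0.272% of the windows and 2.28% of the fragments. Between stages it called 0 fragments (18 at that level), beside 0% of all fragments. For lineages, 1 window was called without the stage term (7.23% of all windows), and it was not that of Foxs1 or Foxn4. Among 8 alternatives other than leaving out a library, the Foxn4 window call was lost in 4 and the Foxs1 window call in 2. With a higher minimum of cytosines 4 windows were called (8.81% of all). On the percent scale 2 promoters were called (1.99% of all) and with a pseudocount of 5 also 2 (2.26% of all). For stages, 1 fragment was called with the higher minimum (0.229% of all), since that of Foxn3 has 6 cytosines and was left out. Leaving out 1 library at a time gave 1 to 3 windows between lineages, where 4.63% to 6.22% of all windows were called. It gave 4 to 9 fragments, where 6.65% to 7.91% of all fragments were called. The lowest of these fragment counts were without BAT day 0 or WAT day 0. Between stages 2 fragments were called without each later library in turn, beside 0.0922% to 0.153% of all. Without a day 0 library the stage rested on 1 library for day 0, and the calls lost there are given above. At a 20-point limit, BAT differed from WAT at 66 forkhead cytosines on day 0, 94 on day 4 and 109 on day 6. These were 1.98%, 2.82% and 3.27% of the forkhead cytosines, beside 4.5%, 4.85% and 5.64% of all cytosines. Day 6 differed from day 0 by that limit at 100 forkhead cytosines in BAT (3%, beside 4.34% of all). In WAT it did so at 95 (2.85%, beside 3.22% of all). The Foxp4 fragment at chr17:48021247-48021371 was called on the percent scale (limma, adjusted p = 0.0487). With the strands averaged, the lineage calls of the Foxa3, Foxm1, Foxn4 and first Foxp1 fragments were lost (limma, adjusted p = 0.178, 0.0667, 0.0633 and 0.0589). No paired analysis by replicate was possible because each condition is 1 library and so has no replicate numbers to pair, and the 6-library fit above is the comparison within days. With no read numbers, differences of a few points at single cytosines cannot be told from counting error.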
